A study of Mus musculus with 108 samples.

Results

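The genes examined were those of the mouse major histocompatibility complex (MHC): RefSeq genes of mm10 chromosome 17 whose symbols begin with H2-, together with Tap1, Tap2, Psmb8, Psmb9 and Tapbp. The rule found 51 genes among 49210 annotated genes. Of these, 45 had a curated transcript, out of 26089 such genes in all. By symbol, 29 of the 45 were class I genes, 10 were class II genes, 5 supplied peptides to class I, and H2-Ke6 belonged to neither class. The measured quantity was the chromatin state of each 200 bp bin. Livers of inbred C57BL/6 female mice, fixed in formalin and embedded in paraffin, had been profiled for H3K4me3, H3K27me3, H3K27ac and H3K4me1. Mice were on a standard diet at 3 months (SD 3m, 8 mice and 30 libraries) or 12 months (SD 12m, 8 mice and 29 libraries), or were 12 months old and had received 30% fewer calories since the age of 3 months (CR 12m, 9 mice and 29 libraries). The SD 6m group was not analysed here.

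The authors merged the libraries of a group before ChromHMM assigned 1 of 8 states to every bin. Each group therefore had 1 segmentation, no spread between mice could be computed, and all values below are descriptions of 3 segmentations without a test. States 1 and 2 (active TSS and flanking TSS) carry H3K4me3 and H3K27ac, and are called promoter states here. States 3 to 5 are active enhancer 1, active enhancer 2 and poised enhancer, state 6 is repressed Polycomb with H3K27me3, state 7 is named repeats/cLAD and state 8 is quiescent. States 1 to 5 are called active, so the poised enhancer state is counted among them. The start of a gene was the transcription start site (TSS) of its longest curated transcript. SD 12m and CR 12m were both set against the same SD 3m segmentation, so the 2 comparisons are not independent. Where 3 values are given together, they follow the order SD 3m, SD 12m, CR 12m. The samples were whole liver, in which fewer cells of a type and less of a mark per cell cannot be told apart.

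Class I molecules present peptides from inside the cell on nearly all nucleated cells, hepatocytes included. They need peptides cut by the immunoproteasome (Psmb8, Psmb9), pumped into the endoplasmic reticulum by Tap1 and Tap2 and loaded with the help of tapasin (Tapbp). Class II molecules present peptides from outside the cell and are made mainly by dendritic cells, B cells and macrophages, under the control of the coactivator Ciita. Nonclassical class I genes of the Q, T and M families have narrower roles, and many M genes are known for expression in vomeronasal neurons.

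The start regions of 7 members are shown because the results below separate them. H2-K1 and H2-D1 encode the classical class I heavy chains. H2-Aa and H2-Eb1 encode chains of the classical class II molecules, and H2-Oa a chain of the class II inhibitor H2-O. Tap1 shares its start region with Psmb9, and H2-M10.5 is a vomeronasal class I gene. The sequences are RefSeq promoters of GRCm38.p6 (the assembly named mm10), 250 bases before to 50 after the annotated start, read 5′ to 3′ along the gene. H2-K1 lies at chr17:34000298-34000597 on the minus strand, H2-D1 at chr17:35262844-35263143 on the plus strand, H2-Aa at chr17:34287774-34288073 on the minus strand and H2-Eb1 at chr17:34305617-34305916 on the plus strand. H2-Oa lies at chr17:34092129-34092428, Tap1 at chr17:34187306-34187605 and H2-M10.5 at chr17:36772660-36772959, all on the plus strand. Capitals mark matches, on either strand, to the Y box core (CTGATTGG, read as CCAATCAG on the other strand), to an X box pattern given by name, to the interferon-stimulated response element core (GAANNGAAA), to a kappa B core (GGGATTCCC) or to TATAAA.
H2-K1: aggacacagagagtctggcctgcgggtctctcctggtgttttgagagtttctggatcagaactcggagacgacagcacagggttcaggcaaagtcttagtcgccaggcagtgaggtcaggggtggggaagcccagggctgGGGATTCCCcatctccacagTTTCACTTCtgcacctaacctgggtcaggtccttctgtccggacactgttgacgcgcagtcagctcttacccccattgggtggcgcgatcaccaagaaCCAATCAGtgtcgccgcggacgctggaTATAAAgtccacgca
H2-D1: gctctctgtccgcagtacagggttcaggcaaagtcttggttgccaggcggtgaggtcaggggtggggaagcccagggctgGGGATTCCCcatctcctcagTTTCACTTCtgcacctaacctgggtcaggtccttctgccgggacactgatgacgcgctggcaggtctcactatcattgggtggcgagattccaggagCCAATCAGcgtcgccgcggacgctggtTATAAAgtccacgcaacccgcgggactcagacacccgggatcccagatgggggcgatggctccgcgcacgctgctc
H2-Aa: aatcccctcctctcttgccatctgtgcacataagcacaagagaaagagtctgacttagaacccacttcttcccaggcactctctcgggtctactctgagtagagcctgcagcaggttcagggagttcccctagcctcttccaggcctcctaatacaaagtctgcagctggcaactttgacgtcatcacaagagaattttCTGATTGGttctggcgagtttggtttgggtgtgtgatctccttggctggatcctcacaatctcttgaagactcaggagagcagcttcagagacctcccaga
H2-Eb1: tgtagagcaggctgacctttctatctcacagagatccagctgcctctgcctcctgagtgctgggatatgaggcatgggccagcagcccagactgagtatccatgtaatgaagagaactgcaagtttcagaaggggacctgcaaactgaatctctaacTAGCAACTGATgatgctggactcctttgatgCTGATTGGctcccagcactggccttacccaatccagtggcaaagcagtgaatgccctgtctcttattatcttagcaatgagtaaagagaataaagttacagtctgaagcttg
H2-Oa: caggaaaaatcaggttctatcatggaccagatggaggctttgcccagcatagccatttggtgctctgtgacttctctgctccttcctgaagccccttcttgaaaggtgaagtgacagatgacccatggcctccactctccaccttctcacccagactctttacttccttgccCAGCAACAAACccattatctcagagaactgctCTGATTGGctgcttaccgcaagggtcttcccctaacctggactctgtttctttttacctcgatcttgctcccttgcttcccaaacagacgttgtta
Tap1: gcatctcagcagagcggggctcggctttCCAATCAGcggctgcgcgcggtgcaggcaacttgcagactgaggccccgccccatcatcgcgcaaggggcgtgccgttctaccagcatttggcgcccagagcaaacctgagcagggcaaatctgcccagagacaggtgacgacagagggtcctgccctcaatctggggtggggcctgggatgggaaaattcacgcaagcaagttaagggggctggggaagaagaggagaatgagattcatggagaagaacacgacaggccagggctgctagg
H2-M10.5: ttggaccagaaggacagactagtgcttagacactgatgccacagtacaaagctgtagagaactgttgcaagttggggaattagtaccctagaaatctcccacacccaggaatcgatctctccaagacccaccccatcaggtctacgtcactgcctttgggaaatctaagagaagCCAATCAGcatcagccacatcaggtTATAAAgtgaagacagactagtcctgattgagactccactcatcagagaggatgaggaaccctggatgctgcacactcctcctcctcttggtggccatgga

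A promoter entry was found for 34 of the 51 members, and H2-Ab1 was among those without one. The Y box core stood in 14 of 22 class I and 4 of 7 class II promoters, against 4.10% of all 32851 promoters in the table. The X box pattern stood in 5 of the 7 class II promoters (H2-Oa, H2-DMb1, H2-Ob, H2-Eb1 and H2-Eb2) and in 1 of the 22 class I promoters, against 5.80% of all promoters. The interferon-stimulated response element core was found in 8 class I and 0 class II promoters (7.52% of all promoters), and the kappa B core in 4 class I and 0 class II promoters (0.353%). TATAAA was found in 13 class I and 0 class II promoters, against 13.6% of all. The H2-K1 and H2-D1 promoters were identical at 211 of 240 aligned positions. Their order of matches was the same, the kappa B core, the interferon-stimulated response element core, the Y box core and TATAAA, but the annotated start of H2-K1 lay upstream of its TATAAA and that of H2-D1 lay downstream. H2-M10.5 held the Y box core and TATAAA as the classical genes did, with neither of the other class I matches. These matches describe letters in a window and are not evidence that a factor binds there.

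At 3 months, class I and class II starts differed in which states they carried. All 10 class II starts, all 5 peptide supply starts and 14 of 29 class I starts lay in an active state, against 58.2% of all genes. The poised enhancer, state 5, held 2 of these class II starts (H2-Ob and H2-Eb2), 1 of these class I starts (H2-T-ps) and 1657 of all 26089 starts. Promoter states held 4 of the 10 class II starts, 5 of the 5 peptide supply starts and 12 of the 29 class I starts, against 40.1% of all genes. State 6 held 6 class I starts and 0 class II starts (11.0% of all genes), and states 7 or 8 held 9 class I starts and 0 class II starts (30.7% of all genes). The 14 active class I starts came mostly from outside the M family: 13 of the 17 K, D, Q and T genes were active, against 1 of the 12 M genes.

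At 12 months, active states held 16 of the 29 class I starts in SD 12m and 14 in CR 12m, where all genes stood at 58.3% and 58.9%. Class II starts were active in 10 of 10 genes in SD 12m and in 8 of 10 in CR 12m. Promoter states held 11 and 9 class I starts, 2 and 1 class II starts, and 4 and 3 peptide supply starts in SD 12m and CR 12m, against 34.7% and 30.7% of all genes. State 6 held 4 and 1 class I starts and 0 and 2 class II starts, against 14.9% and 12.2% of all genes. States 7 or 8 held 9 and 14 class I starts and no class II start, against 26.8% and 28.9%.

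**Figure D1:**
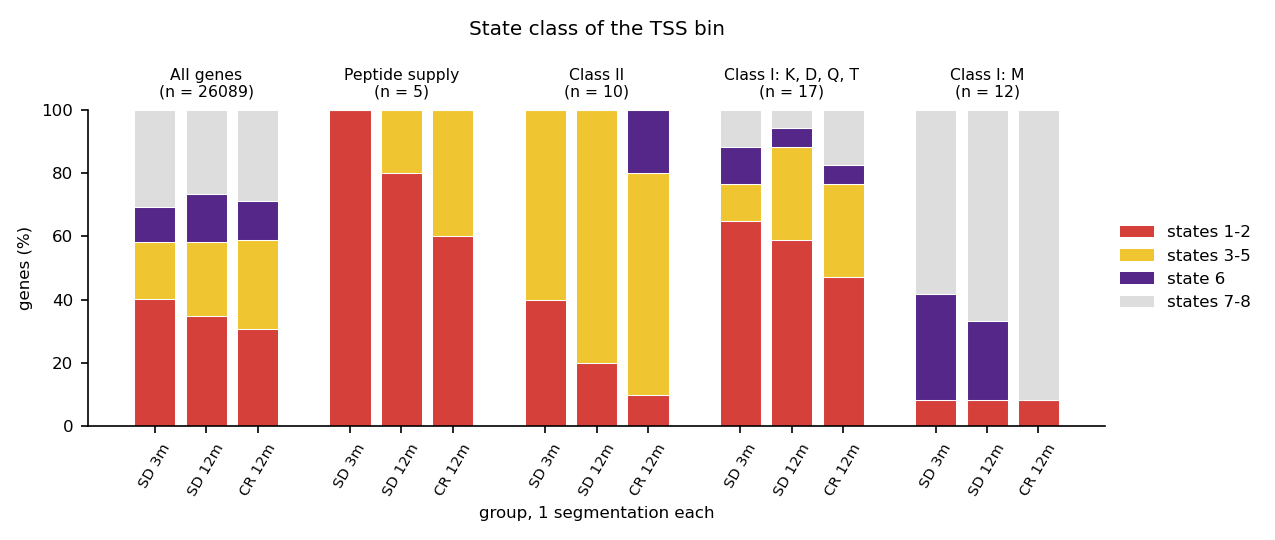
Share of genes (vertical axis, percent) whose TSS bin lay in states 1-2, states 3-5, state 6 or states 7-8, for all genes and for 4 sets of MHC genes in each of the 3 groups. Class II starts were all in active states except in CR 12m, where 2 of 10 lay in state 6, and M family starts were mostly in states 6 to 8 in each group.

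The state of the TSS bin differed from SD 3m in 16 of the 45 members (35.6%) in SD 12m, against 32.6% of all genes. It differed in 25 members (55.6%) in CR 12m, against 34.7%. By class, this was 8 and 13 of 29 class I genes, 6 and 8 of 10 class II genes, and 1 and 3 of 5 peptide supply genes in SD 12m and CR 12m. The share for the members in SD 12m was thus near that of all genes, and in CR 12m it was above it. With the 8 states merged to 5 classes (states 1 and 2, 3 to 5, 6, 7 and 8), 22.2% of the members differed in SD 12m, against 23.3% of all genes, and 35.6% in CR 12m, against 25.3%.

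**Figure D2:**
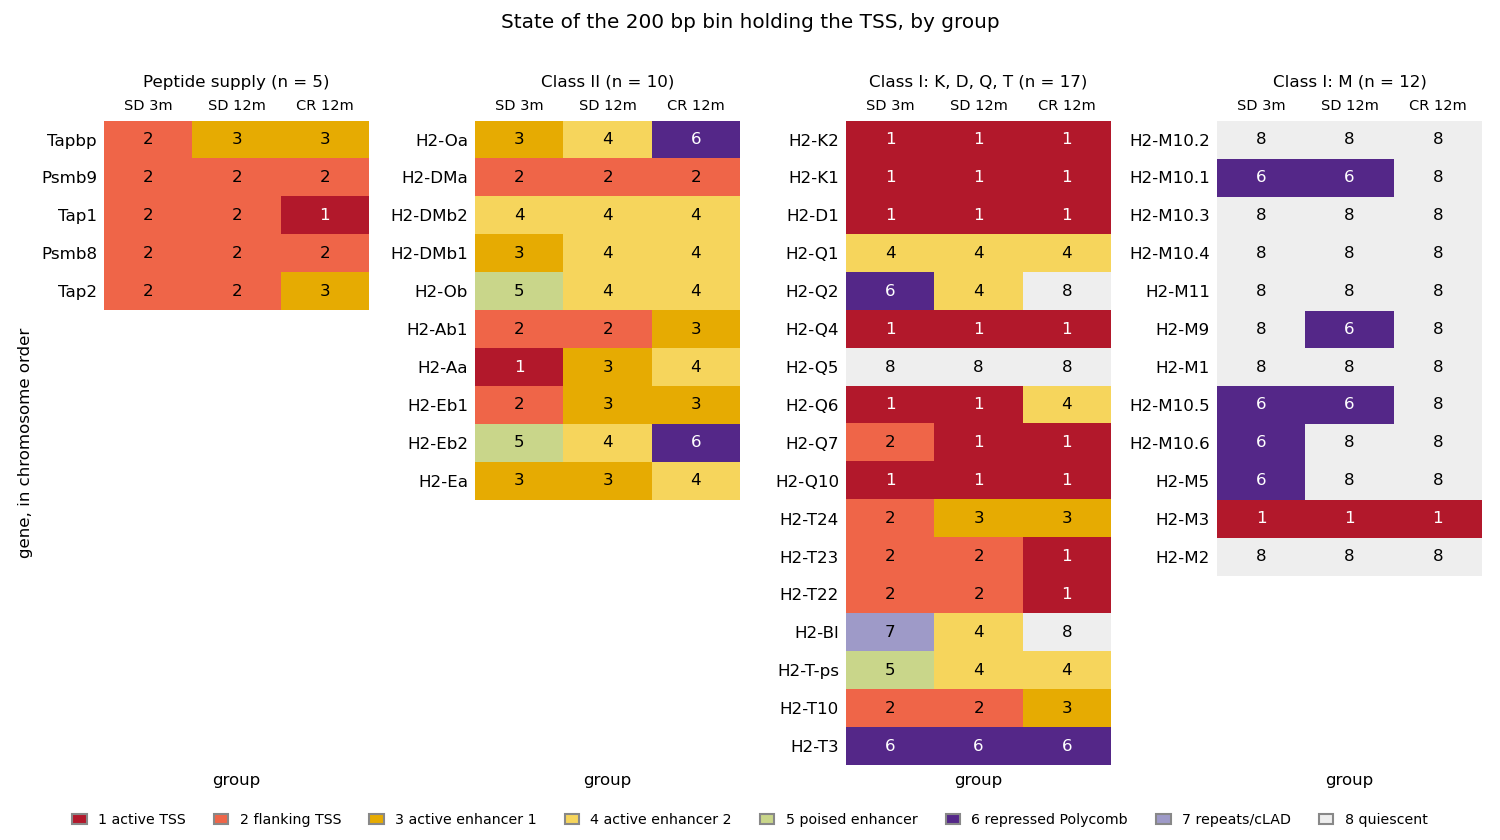
State number (1 to 8, colour and digit) of the TSS bin of each of 44 MHC genes, by group in columns and by gene in chromosome order in rows. H2-K1, H2-K2, H2-D1, H2-Q4, H2-Q10 and H2-M3 were in state 1 in all 3 groups, while H2-Oa and H2-Eb2 reached state 6 in CR 12m alone.

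The classical class I genes kept an active TSS at their start in every segmentation. H2-K1, H2-D1 and H2-K2, a transcribed pseudogene beside H2-K1, were in state 1 in all 3 groups. What differed was how far the promoter states reached. Of the 20 bins within 2 kb of the H2-K1 start, promoter states held 15 in both groups on the standard diet (SD 3m and SD 12m) and 7 under caloric restriction (CR 12m). For H2-D1 these were 14, 10 and 9 bins, and for H2-K2 they were 20, 8 and 5 bins. The other bins of these windows lay in states 3 to 5, so that all 20 bins were active in each group for each of the 3 genes. The gene bodies were 100% active throughout.

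Among the Q genes, H2-Q10, which encodes a secreted class I molecule made by the liver, was in state 1 in all groups with 10, 6 and 6 promoter bins in SD 3m, SD 12m and CR 12m. H2-Q4 was in state 1 in all groups with 7, 11 and 4 promoter bins. H2-Q7, a gene of the Qa-2 antigen, was in states 2, 1 and 1 with 7, 12 and 4 promoter bins. H2-Q6, its close neighbour, was in state 1 in SD 3m and SD 12m with 12 and 16 promoter bins, and in state 4 in CR 12m with 0. These 3 genes had more promoter bins in SD 12m than in SD 3m and fewer in CR 12m. The H2-Q6 and H2-Q7 promoters were identical at 254 of 261 aligned positions. Of the 50-base windows within 2 kb of the start, 43.6% for H2-Q6 and 44.7% for H2-Q7 occurred once in the assembly. The authors removed reads with a mapping quality under 1, and reads of 50 bases were used. H2-Q1 was in state 4 in all groups. H2-Q2 was in state 6, 4 and 8, with 17, 0 and 0 of its 20 bins in state 6.

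Of the T genes, H2-T22, which encodes a ligand of gamma delta T cells, H2-T10, a transcribed pseudogene in the annotation, and H2-T23, which encodes the Qa-1 antigen recognised by NKG2 receptors, were active in every group. H2-T22 and H2-T23 were in states 2, 2 and 1, with 16, 11 and 9 promoter bins for H2-T22 and 8, 7 and 6 for H2-T23. H2-T10 was in states 2, 2 and 3 with 12, 9 and 2 promoter bins. H2-T24 had the largest difference of the family, with 16, 3 and 0 promoter bins in the same order of groups, at states 2, 3 and 3. H2-T-ps was in states 5, 4 and 4, without a promoter bin in any group. H2-Bl was in states 7, 4 and 8, and 1, 20 and 0 of its 20 bins were active. H2-T3, the remaining T gene, was in state 6 with all 20 bins in each group. H2-T22 and H2-T-ps each had the start of another gene within 2 kb, 219 bp and 279 bp away, so a state there cannot be given to either gene alone. Of the T genes 4 of 7, and of the Q genes 4 of 7, had under 80% of their 50-base windows found once.

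The M family was mostly without active states. H2-M3, which presents peptides that begin with formylmethionine, was the exception, in state 1 in all groups with 9, 6 and 4 promoter bins. State 6 held 4, 3 and 0 of the 12 M starts in SD 3m, SD 12m and CR 12m. H2-M10.5 and H2-M10.1 were in states 6, 6 and 8, H2-M10.6 and H2-M5 in states 6, 8 and 8, and H2-M9 in states 8, 6 and 8. The 6 other M genes were in state 8 in all groups. In SD 3m, H2-M10.5 and H2-M10.6 lay within the same state 6 stretch of 60.6 kb (chr17:36763601-36824200). H2-M10.5 lay in a state 6 stretch of 42.2 kb in SD 12m, and in CR 12m both genes lay in a state 8 stretch of 338.6 kb. H2-M5 has a second curated start 8422 bp downstream, which was in state 6 in all 3 groups.

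Of the 6 class I starts that state 6 held at 3 months, state 8 held 2 in SD 12m, against 19.8% of all genes in state 6, and 5 in CR 12m, against 27.9%. The M genes lie next to each other, so they are not separate observations: the 4 M starts in state 6 in SD 3m lay in 3 stretches. From H2-M10.2 to H2-M2, a region of 1199 kb, state 6 covered 25.3% of the bins at 3 months, against 20.7% (SD 12m) and 5.42% (CR 12m) at 12 months. Over the genome, state 6 covered 9.48%, 14.4% and 10.3%. The order of the groups in this region was therefore not that of the genome, where SD 12m had the most state 6.

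The peptide supply genes were active in all groups. Tap1 and Psmb9 start 226 bp apart on opposite strands and share most of their windows, which held 20, 17 and 12 promoter bins for both in SD 3m, SD 12m and CR 12m. Tap1 was in states 2, 2 and 1 and Psmb9 in state 2 throughout. Psmb8 was in state 2 in all groups with 20, 9 and 5 promoter bins. Tap2 was in states 2, 2 and 3 with 11, 10 and 5 promoter bins. Tapbp was in states 2, 3 and 3 with 16, 7 and 7 promoter bins. Gm19412 starts 1018 bp away on the opposite strand, so these bins cannot be given to Tapbp alone. Each of the 5 genes still had promoter bins in both groups of 12 months.

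Of the 3 sets, class II genes had the lowest share of their SD 3m promoter bins left at 12 months. H2-Ab1 and H2-Aa encode the beta and alpha chains of I-A, the class II molecule that C57BL/6 mice use. The H2-Ab1 start was in states 2, 2 and 3 with 12, 5 and 0 promoter bins in SD 3m, SD 12m and CR 12m. The H2-Aa start was in states 1, 3 and 4 with 9, 0 and 0 promoter bins. H2-Eb1, the beta chain gene of I-E, was in states 2, 3 and 3 with 14, 2 and 0 promoter bins. All 3 genes thus had promoter bins in SD 3m and none in CR 12m, while their start bins in CR 12m lay in states 3 or 4. H2-Ea, the alpha chain gene of I-E, which does not produce a chain in this strain, was in states 3, 3 and 4 without a promoter bin in any group.

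The genes of the peptide exchange factor H2-DM and its inhibitor H2-O gave varied values. H2-DMb1 was in states 3, 4 and 4 with 10, 0 and 0 promoter bins, and H2-DMb2 in state 4 in all groups with 0. H2-DMa was in state 2 in all groups with 20, 16 and 17 promoter bins. The longest H2-DMa transcript starts 225 bp from that of Brd2, a broadly expressed chromatin reader gene on the opposite strand, so these bins cannot be told apart from those of Brd2. The other curated start of H2-DMa, 2686 bp downstream, was in state 3 in all groups with 8, 2 and 3 promoter bins. H2-Ob was in states 5, 4 and 4 with 1, 0 and 0 promoter bins. H2-Oa was in states 3, 4 and 6, and all 20 bins of its window were active in SD 3m and SD 12m and in state 6 in CR 12m. H2-Eb2 was likewise in states 5, 4 and 6, with all 20 bins in state 6 in CR 12m.

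**Figure D3:**
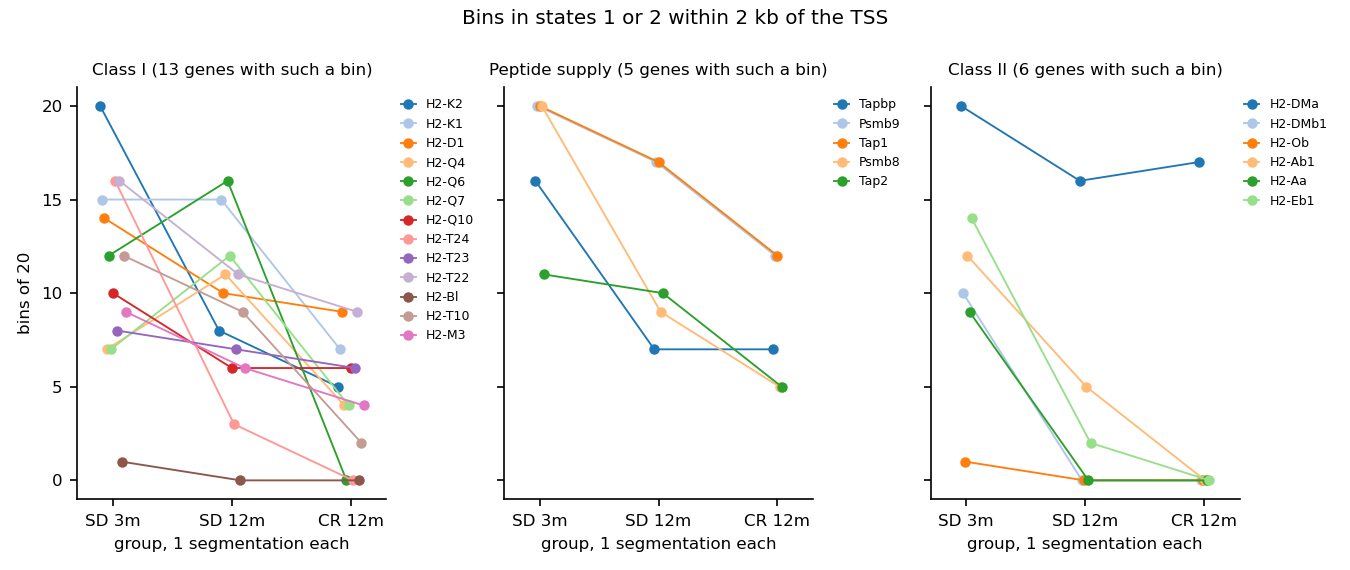
Number of bins (of 20 within 2 kb of the TSS) in states 1 or 2 for each gene that had any, by group. Lines join the values of 1 gene and points are shifted sideways for legibility. All class II genes but H2-DMa were at 0 in CR 12m, while H2-K1, H2-D1 and all peptide supply genes kept between 5 and 12 bins there. Of the class I genes drawn, H2-Q6, H2-T24 and H2-Bl were also at 0 in CR 12m.

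Counted over genes, a promoter bin lay within 2 kb of the start in 13 of 29 class I, 6 of 10 class II and 5 of 5 peptide supply genes in SD 3m, against 47.7% of all genes. The counts were 12, 3 and 5 genes in SD 12m (43.9% of all genes) and 10, 1 and 5 in CR 12m (41.7%). Of the genes with such a bin in SD 3m, none was left in SD 12m for 1 of 13 class I, 3 of 6 class II and 0 of 5 peptide supply genes, against 9.11% of all such genes. In CR 12m none was left for 3 of 13 class I, 5 of 6 class II and 0 of 5 peptide supply genes, against 13.6%. The 6 class II genes are few and lie in 1 region, so the share carries little weight by itself.

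By the numbers of promoter bins, class II genes again had the lowest share left in both groups of 12 months. Class I genes lay below peptide supply genes in CR 12m, as in the counts of genes. In SD 12m they lay above them, unlike in those counts. The 10 class II windows held 66, 23 and 17 promoter bins in the 3 groups, or 0.348 and 0.258 of the SD 3m number. Without H2-DMa, these were 46, 7 and 0 bins. The 29 class I windows held 147, 114 and 56 bins, or 0.776 and 0.381 of the SD 3m number, and the 5 peptide supply windows 87, 60 and 41 bins, or 0.690 and 0.471. Bins shared by the Tap1 and Psmb9 windows entered the peptide supply sums and ratios for each of these genes. With each bin counted once, those within 2 kb of the Psmb9, Tap1, Psmb8 and Tap2 starts numbered 52, 36 and 22. Over all genes the ratios were 0.657 and 0.578, so promoter bins were fewer at 12 months over all genes as well. H3K4me3, on which the promoter states rest, came from 7, 8 and 5 libraries in the 3 groups, and the part of these numbers in the values was not tested. The class II ratios lay below those of all genes in both groups, and the class I ratio lay above it in SD 12m and below it in CR 12m. Within class I, the ratios for SD 12m and CR 12m were 0.673 and 0.429 for the classical genes, 1.25 and 0.389 for the Q genes, 0.566 and 0.321 for the T genes and 0.667 and 0.444 for the M genes. The T genes thus lay below all genes in both groups, and the Q genes were the only ones with more bins in SD 12m than in SD 3m. For the 20 class I genes with at least 80% of their 50-base windows found once, a subset chosen after seeing the data, the ratios were 0.646 and 0.354, both below those of all genes.

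**Figure D4:**
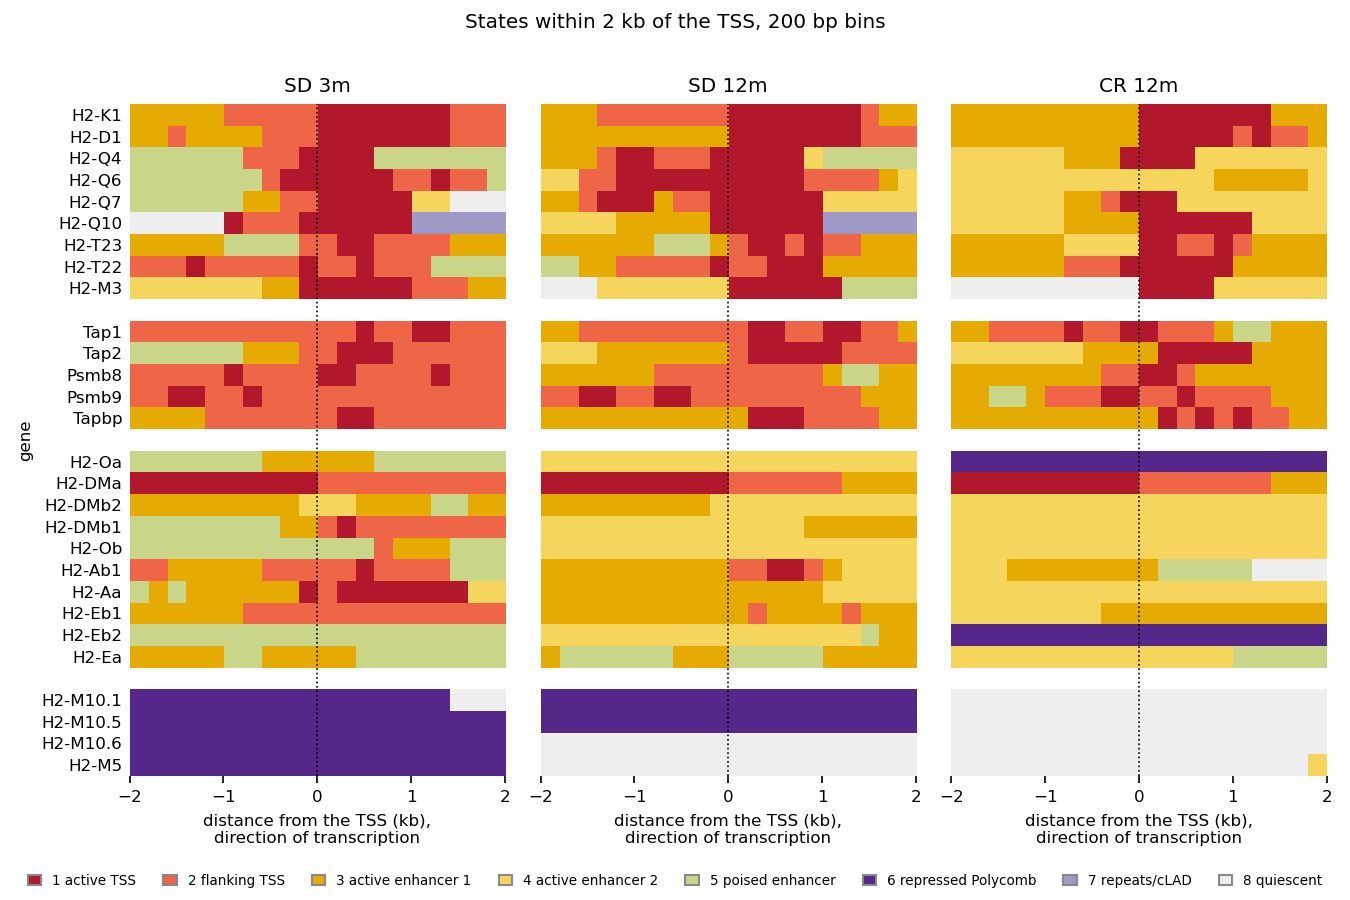
State (colour) of the 20 bins of 200 bp within 2 kb of the TSS (horizontal axis, kb, in the direction of transcription; dotted line, TSS), for 28 MHC genes in rows and the 3 groups in panels. The promoter states around H2-Aa, H2-Ab1 and H2-Eb1 in SD 3m had no counterpart in CR 12m, where states 3 to 5 or 8 stood, while H2-K1, H2-D1 and Tap1 kept narrower ones. Class I rows are a selection. Of the T genes, only those with a start in promoter states in all 3 groups are drawn. H2-T24 and H2-T10, with 0 and 2 promoter bins in CR 12m, are therefore absent. H2-Q6, which is drawn, had 0 there. Of the M genes, only H2-M3 and those with a start in state 6 in SD 3m are drawn. H2-M9, in state 6 in SD 12m alone, and the M genes in state 8 in all groups are absent.

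Of the 10 class II starts that were active in SD 3m, 2 lay in state 6 in CR 12m, against 1.23% of all genes that were active in SD 3m. In SD 12m the count was 0 of 10, against 1.11%. Of the 14 class I starts that were active in SD 3m, 0 lay in state 6 in either group of 12 months. The state 6 stretch over H2-Oa in CR 12m spanned 15.2 kb (chr17:34080001-34095200) and also held H2-Pa, a gene model in state 6, 4 and 6 in SD 3m, SD 12m and CR 12m. The stretch over H2-Eb2 spanned 26.0 kb (chr17:34314601-34340600). Both stretches reached well beyond the windows of the starts.

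The median share of the gene body in active states of class II genes was 100%, 100% and 57.3% in the 3 groups, against 43.0%, 46.1% and 48.3% over all genes. The active share of the gene body was lower in CR 12m than in SD 3m for 7 of the 10 class II genes, against 16.3% of all genes, and higher for none, against 23.0%. For H2-Aa it was 100%, 100% and 48.0%, with the other 52.0% in state 6 in CR 12m. For H2-Ab1 it was 100%, 100% and 19.4%, with no bin in state 6. For H2-Eb2 it was 100%, 100% and 5.06%, and for H2-Oa 100%, 100% and 0%. For H2-DMb1 it was 100%, 45.7% and 45.7%, with the other 54.3% in state 8 in both groups of 12 months. Most class I bodies were either active in all bins or in none, and the others lay between. All bins were active in 9, 13 and 9 of the 29 class I bodies in SD 3m, SD 12m and CR 12m, against 28.4%, 32.7% and 35.5% of all genes. No bin was active in 14, 13 and 14 of them, against 31.3%, 32.8% and 32.7%.

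Across the class II region from H2-Pb to H2-Ea, 271 kb long, promoter states covered 19.6% of the bins at 3 months, against 6.05% (SD 12m) and 4.58% (CR 12m) at 12 months. Over the genome they covered 1.54%, 0.788% and 0.662%. The region also holds Brd2 and the genes Psmb9, Tap1, Psmb8 and Tap2. Of the 62 promoter bins left in the region in CR 12m, 17 lay nearest to the H2-DMa and Brd2 starts and 22 nearest to peptide supply starts. None lay nearest to another class II start, all within 2 kb, and 23 lay farther than 2 kb from these starts. These 23 formed an unbroken run with the 17 at the H2-DMa and Brd2 starts, on the side upstream of H2-DMa. At 3 months these numbers were 20, 52, 46 and 148, of 266 bins. The kinds of enhancer states also differed. State 5, the poised enhancer, covered 44.0%, 6.42% and 1.99% of the region, and state 4, active enhancer 2, covered 2.73%, 44.1% and 41.7%. Over the genome state 5 covered 5.40%, 2.70% and 2.39% and state 4 covered 6.29%, 9.21% and 8.08%. State 6 covered 5.39%, 1.48% and 21.3% of the region. State 7, which covered 1.89%, 11.4% and 4.15% of the genome, covered none of its bins.

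**Figure D5:**
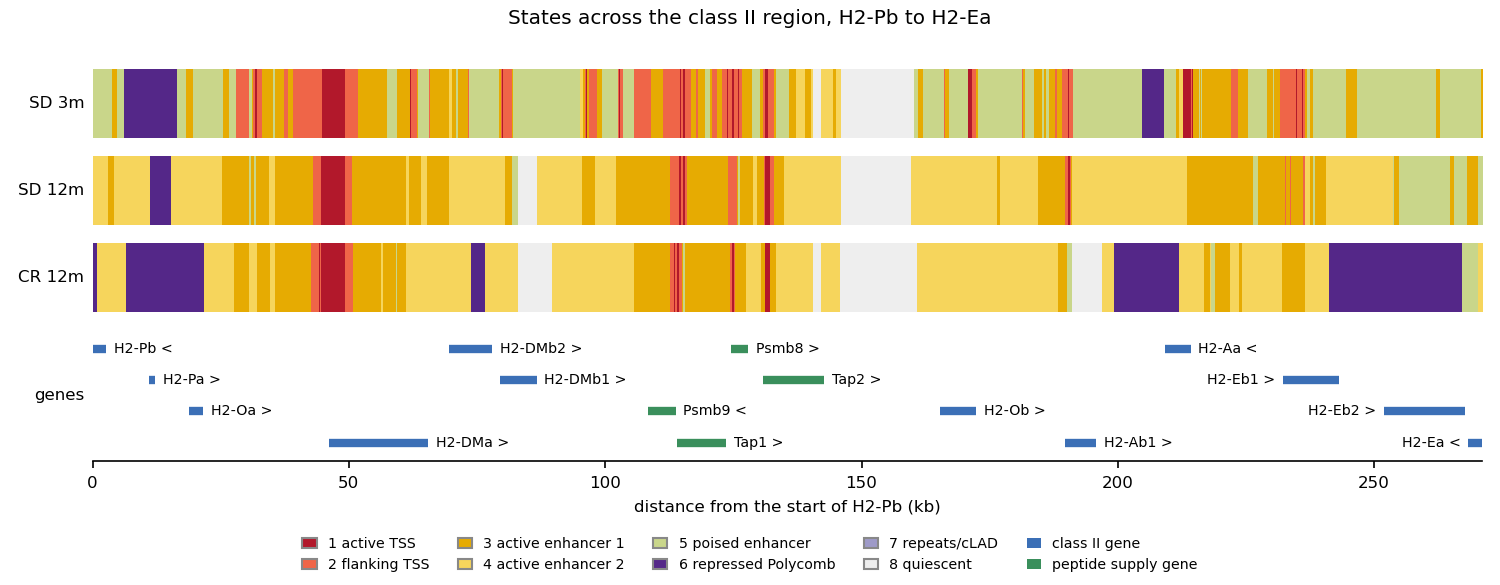
States (colours) of consecutive 200 bp bins from H2-Pb to H2-Ea in the 3 groups, above the genes of the region (bars; arrowheads give the strand), with distance from the start of H2-Pb in kb on the horizontal axis. State 5 covered 44.0% of the SD 3m bins, state 4 covered 44.1% of the SD 12m bins, and state 6 covered 21.3% in CR 12m.

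The class I regions that held state 6 at 3 months, among them that of the M genes above, held less of it at 12 months. From H2-D1 to H2-Q10, 211 kb, state 6 covered 24.6% of the bins at 3 months, and 1.51% (SD 12m) and 2.36% (CR 12m) at 12 months, while state 4 covered 10.1%, 38.7% and 38.1%. The 81.1 kb from Tapbp to H2-K1 held no state 6 in any group. From H2-T24 to H2-T3, 187 kb, state 6 covered 33.4%, 10.5% and 8.24%, and state 8 covered 38.1%, 48.0% and 62.1%. The genome had 66.1%, 51.6% and 62.7% of its bins in state 8, so this region stayed below the genome share in each group. Over the whole complex from Tapbp to H2-M2, 3564 kb, state 6 covered 20.7%, 14.9% and 12.8%, and state 7 covered 0.982%, 0.628% and 0.0393%.

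Genes that work with the MHC but lie elsewhere were counted in the same way. The 8 class I partners (B2m, the invariant light chain, with Canx, Calr, Pdia3, Erap1, Psmb10, Psme1 and Psme2) were in promoter states in all 3 groups, with 139, 91 and 87 promoter bins in all. The 3 class II partners (Cd74, the invariant chain, the protease Ctss and the thiol reductase Ifi30) had active starts in all groups, none in a promoter state, and 17, 0 and 0 promoter bins. Promoter bins at these 3 loci were thus found in SD 3m alone, where Ctss had 5, Ifi30 4 and Cd74 8. Of all genes with such a bin in SD 3m, 9.11% had none in SD 12m and 13.6% had none in CR 12m. With 3 genes, the loss carries little weight by itself. Of 11 regulators, 10, 11 and 11 had active starts, with 128, 97 and 88 promoter bins. Ciita was in states 5, 4 and 4 and Nlrc5, the class I counterpart of Ciita, in states 4, 3 and 4, and neither had a promoter bin in any group. Nfyc was the only regulator that was not active throughout, in states 8, 4 and 4. The 12 class III neighbours, which lie between H2-Ea and H2-D1, had active starts in every group, with 108, 56 and 49 promoter bins. Of the 9 with such a bin in SD 3m, 2 had none in SD 12m (Ltb and Tnf). In CR 12m 3 had none (Ltb, Tnf and C2), so a full loss was not limited to class II genes and their partners. Over all genes, 58.2%, 58.3% and 58.9% of starts were active and 40.1%, 34.7% and 30.7% in promoter states. Promoter bins in SD 12m and CR 12m were 0.655 and 0.626 of the SD 3m number for the class I partners. For the regulators these ratios were 0.758 and 0.688, and for the class III neighbours 0.519 and 0.454, against 0.657 and 0.578 over all genes. The class I partners thus lay near all genes.

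Markers of cell types were read in the same way. Starts of all 6 hepatocyte markers were active in each group, with 47, 48 and 40 promoter bins. Of 6 Kupffer cell and macrophage markers, 2, 1 and 1 had active starts and 2, 5 and 4 were in state 6, with 3, 0 and 0 promoter bins, all of them around Csf1r. Clec4f and Vsig4 were in state 6 in all groups, and Csf1r was in state 3 in all groups. Adgre1 was in states 5, 6 and 8, Marco in states 8, 6 and 6, and Cd5l in states 7, 6 and 6. Of 5 dendritic cell markers, 4, 3 and 3 had active starts with 15, 10 and 3 promoter bins, all of them around Zbtb46. Of 5 B cell markers 2 were active in each group, and of 6 T cell markers also 2, with no promoter bin in any group. Endothelial markers were active in 3, 4 and 5 of 5 genes with 19, 23 and 9 promoter bins. Among all genes, 58.2%, 58.3% and 58.9% of starts were active, and 11.0%, 14.9% and 12.2% lay in state 6. Promoter bins in SD 12m and CR 12m were 1.02 and 0.851 of the SD 3m number for hepatocyte markers. For endothelial markers these ratios were 1.21 and 0.474, against 0.657 and 0.578 over all genes. The bins of the macrophage and dendritic cell lists thus came from 1 gene each, and the B and T cell lists had none at 3 months to compare. Their part in the class II values was not tested.

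Among the 34 members with a promoter entry, CpG content went with the states in SD 3m. Their median number of CpG in the 300 bases was 11 for the 17 in promoter states and 3 for the 5 in states 3 to 5. It was 2 for the 12 in states 6 to 8, against 7 over all promoters. H2-Ab1, H2-K2, Tap2, H2-T24 and H2-T10 were also in promoter states in SD 3m but had no entry. All of the 12 but H2-Q2 and H2-T3 were M family genes, so state and family cannot be told apart here. Class II promoters held between 0 CpG (H2-Eb1) and 29 (H2-DMa), with a median of 3. The H2-DMa entry is at the start 225 bp from that of Brd2, so its CpG cannot be given to H2-DMa alone. The other class II promoters held at most 3. Peptide supply promoters held between 11 and 17. The class I promoters outside the M family had a median of 9 and those of the M family of 2.

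The 6 gene models without a curated transcript were left out of the counts above. Of them H2-Pb was in states 5, 4 and 4, H2-Pa in 6, 4 and 6, H2-Q3 in 8, 8 and 6, H2-M10.5-ps1 in 8, 8 and 8, H2-M6-ps in 8, 4 and 8, and H2-M4-ps in 6, 6 and 8. H2-Ke6, a steroid dehydrogenase gene named for its place, was in states 2, 3 and 1 with 19, 5 and 4 promoter bins.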

How the data were processed

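ChIP-seq of 4 histone marks was performed by the study on livers of 31 mice, and the libraries of a group were merged by the authors. Per the labels, reads were aligned with BWA 0.6.2-r126 and handled with SAMtools 0.1.18. The study's methods give single reads of 50 bases, alignment to mm10, removal of reads with a mapping quality under 1 and of duplicates, and a ChromHMM model of 8 states over 200 bp bins. The deposited value is the state label of each of 13168874 bins on 20 chromosomes, not a signal, a count or a score. Depth per bin is thus unknown, and no interval for a state could be given.

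States of the TSS bin, of the 20 bins within 2 kb of the TSS and of the gene body were read for each RefSeq gene of GRCm38.p6 (Python 3.11.15, numpy 2.4.6, pandas 2.3.3), by functions that were tested on simulated labels. Genes were taken from the assembled chromosomes 1 to 19 and X only. Every 50-base window near a start was searched in the assembly. Promoters were aligned with Biopython 1.88. No test was made, since each group had 1 segmentation. Members and the 67 listed genes were chosen with earlier results of these data known. The text names the classical class I, class II and peptide supply genes, and each other class I gene that was active in any group or moved between states 1 to 5, state 6 and states 7 or 8. H2-T3 and the gene models were added after their values were seen. Other curated starts, protein-coding genes only, the most frequent state of 3 bins, windows of 1 kb and 5 kb, and genes with at least 80% of 50-base windows found once were tried as alternatives. No paired fit was made.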

Additional observations from a re-analysis of the deposited data

Results flagged for a closer look

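In 4 values, SD 12m and CR 12m lay on opposite sides of SD 3m by at least 2 of the 20 bins within 2 kb of a start. The differences were not tested, since each group had 1 segmentation. Promoter bins around H2-Q4 numbered 7, 11 and 4 (SD 3m, SD 12m, CR 12m), so that SD 12m exceeded CR 12m by 7 bins. For H2-Q6 they numbered 12, 16 and 0, a difference of 16 bins, and for H2-Q7 they numbered 7, 12 and 4, a difference of 8 bins. These 3 genes lie near each other, and 43.6% and 44.7% of the 50-base windows around H2-Q6 and H2-Q7 occurred once in the assembly. State 6 bins around H2-M10.1 numbered 17, 20 and 0, a difference of 20 bins between the groups of 12 months.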

How the results depend on the processing

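Of 128 values recomputed under an alternative, 111 moved by less than the 95% Wilson interval of the share or by less than 10 percentage points of a median, and 17 moved by more. That interval treats neighbouring genes as separate and is wide for few genes, so staying within it is no sign of stability: active class I starts in SD 3m were 48.3%, and 35.0% among genes with at least 80% of 50-base windows found once, and state 6 class I starts in CR 12m were 3.45%, and 6.90% for any curated start. The share of members whose start differed from SD 3m was 35.6% and 55.6% for the SD 12m and CR 12m groups, and 22.2% and 35.6% with 5 classes of states. Class I medians were the least stable, with most class I bodies either active in all bins or in none. The median active share within 2 kb of class I starts was 10%, 75.0% and 10% over the 3 groups. In SD 12m it was 100% for 1 kb, 64.0% for 5 kb and 65.0% for protein-coding genes, and in CR 12m it was 0% for 1 kb and 34.0% for 5 kb. Among genes with at least 80% of 50-base windows found once it was 0% in all 3 groups. The median active share of class I bodies was 9.09%, 50.7% and 11.3%. In SD 12m it was 63.8% beyond 2 kb of the start and 22.7% for protein-coding genes, and for genes found once it was 0% at 12 months under both diets. The class II medians in CR 12m were 100% within 2 kb of the start and 82.0% within 5 kb, and 57.3% in the body and 40.1% beyond 2 kb. The share of class I genes left without a promoter bin in SD 12m was 7.69%, and 0% for protein-coding genes, an alternative chosen after seeing the data. No paired analysis was possible because no result comes from a test.

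With 1 segmentation of merged libraries per group, the spread between mice, the depth behind a state and the effect of the groups' different numbers of libraries per mark cannot be told apart from age and diet. A state label has a threshold, so a small difference in a mark can change it. Promoter bins were fewer at 12 months over all genes as well. Class I genes share sequence with their neighbours, which limits unique reads at 9 of 29 starts. RNA was not measured in the data used here.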
